A study of Mus musculus with 8 samples.

Results

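Dusp4, Dusp5, Dusp6, Spry1, Spry2, Spry4, Spred1, Etv1, Etv4 and Etv5 are genes whose transcripts are widely used as a readout of signalling through the kinase ERK. These 10 genes were followed by name among the 55450 genes of a bulk RNAseq table of mouse median eminence (ME), and cell by cell in a single-cell library of wild-type ME. The ME is the floor of the third ventricle in the hypothalamus and is lined by tanycytes, radial glia-like cells that express the transcription factor Rax. The bulk libraries came from the microdissected ME of single mice, 3 control mice and 4 Rax-CreERT2::BrafV600E mutant mice. The sample titles call the controls wt, and the study's methods for these libraries call them control without a genotype. The labels give an age of 2 months, and the study's methods give collection 2 months after tamoxifen. In the mutants, tamoxifen switches on the activated BrafV600E kinase in cells that express Rax, and the mutant tissue held a tumor. By this design, cells of the ME without Rax expression at that time are meant to keep the normal allele. With the same Cre and a reporter allele, the study described sparse leaky labelling in hypothalamic nuclei, in cells shaped like neurons. The single-cell library was made from the pooled ME of 10 female wild-type mice at 2 months, with droplet chemistry in which a unique molecular identifier (UMI) marks every transcript copied. It holds no mutant cells. The labels give the strain of all samples as C57BL/6, and the study's methods give C57BL/6N.

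As background, growth factor receptors activate RAS, RAS activates RAF kinases such as Braf, and RAF activates MEK and then ERK. ERK output raises transcription of its own inhibitors, so that a strong signal limits itself. DUSP6 removes the activating phosphates of ERK in the cytoplasm, and DUSP4 and DUSP5 act in the nucleus. Sprouty proteins (Spry1, Spry2, Spry4) dampen the step between receptors and RAS, and Spred1 brings the RAS inactivator neurofibromin to the membrane. Etv1, Etv4 and Etv5 form the PEA3 group of ETS transcription factors, which carry the signal into gene expression. The activated kinase made from the mutant Braf allele signals without RAS and is less open to inhibitors that act above it.

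Several members share sequence or position with other genes, which limits how their bulk reads can be assigned. In the GENCODE M21 annotation (GRCm38), Dusp5 (chr19:53529109-53542431) overlaps the antisense gene AC137853.2, which holds 20.5% of its 50-base stretches. Spry1 (chr3:37639947-37644598) overlaps the antisense gene Gm42922, which holds 21.8%. The bulk library kit did not mark strand, so reads of these pairs cannot be told apart. Etv5 (chr16:22381309-22439719) shares 24.5% of its stretches with Gm4798, and Etv1 (chr12:38779380-38870484) shares 9.08% with transcripts of many genes. Dusp4 (chr8:34807297-34819894), Dusp6 (chr10:99263231-99267489), Etv4 (chr11:101769742-101785371), Spred1 (chr2:117121374-117182279), Spry2 (chr14:105891947-105896819) and Spry4 shared 0% with other genes.

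The control regions of 3 members are shown because they hold short motifs that known ERK-responsive factors read. TGAATG is the core bound by the repressor Capicua, which ERK removes from DNA, and the CArG box is the site of serum response factor. RefSeq promoter windows (GRCm38.p6) were available for 7 of the 10 members, in 9 windows, and motifs were searched on both strands of the 250 bases before each start. Each sequence runs 5′ to 3′ in the direction of its gene and is printed as far as the first annotated exon, in lower case with motifs in capitals. In Dusp6 and Etv5 the capitals mark TGAATG or its reverse complement.
Dusp6, chr10:99262981-99263230, plus strand: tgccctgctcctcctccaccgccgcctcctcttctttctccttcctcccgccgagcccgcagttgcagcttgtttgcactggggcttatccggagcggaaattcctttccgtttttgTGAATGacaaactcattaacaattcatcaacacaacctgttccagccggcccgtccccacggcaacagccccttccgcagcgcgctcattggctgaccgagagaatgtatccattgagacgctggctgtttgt
Etv5, chr16:22438369-22438618, minus strand: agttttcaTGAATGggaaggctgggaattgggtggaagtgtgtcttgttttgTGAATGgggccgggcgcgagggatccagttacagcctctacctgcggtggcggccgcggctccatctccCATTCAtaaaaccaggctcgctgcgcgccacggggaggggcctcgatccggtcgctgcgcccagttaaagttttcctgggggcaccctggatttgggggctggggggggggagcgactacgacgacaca
In Dusp5 the capitals mark 2 adjoining CArG boxes, which do not overlap.
Dusp5, chr19:53528895-53529108, plus strand: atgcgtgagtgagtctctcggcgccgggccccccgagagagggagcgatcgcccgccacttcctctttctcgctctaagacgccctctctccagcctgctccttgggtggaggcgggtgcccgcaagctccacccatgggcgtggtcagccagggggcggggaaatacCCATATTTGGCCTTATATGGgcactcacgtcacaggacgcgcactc

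TGAATG stood in 3 of the 9 windows, those of Dusp6 and Dusp5 and the second of 2 windows of Etv5, where it occurred 3 times. Of all 32851 promoter windows, 10.9% hold it. The match in Dusp5 lay in the bases next to the start that are annotated as exon. A CArG box stood in 1 of the 9 windows, that of Dusp5, against 1.47% of all windows. The cyclic AMP response element TGACGTCA (1.55% of all windows), the AP-1 site TGANTCA (6.75%) and the ETS site CCGGAAG (6.91%) were in 0 of the 9 windows. These matches describe the letters only. No binding was measured.

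In bulk ME, the members were mostly higher in mutant than in control mice, and Spry4, Etv4, Etv5 and Spred1 had the smallest p. Of the 10 members, 9 had a positive log2 fold change, beside 56.7% of all genes tested. In edgeR's quasi-likelihood test 5 members passed an unadjusted p of 0.05, all of them higher in the mutants. Among all 20466 genes tested, 4.23% passed that p in the higher direction and 3.89% in the lower. The mutant and control libraries did not overlap for 4 members (Spry4, Etv1, Etv4 and Etv5), all higher in the mutants, against 5.83% of all genes tested in that direction and 3.18% in the other. The median log2 fold change of the members was 1.16, beside 0.13 for all genes tested. After adjustment over all genes tested (Benjamini-Hochberg), 0 members and 0 genes (0%) passed 0.05, 865 genes higher and 796 lower passed the unadjusted p, and limma-voom called 0 genes and DESeq2 called 376. All 10 members passed the filter on low counts, although Dusp4 and Dusp5 had 0 counts in control 3. Whether fewer cells of a type or less RNA per cell lies behind a lower level cannot be told apart in bulk tissue.

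The libraries held 8348930 to 13816596 counts in the controls and 4928456 to 10754670 in the mutants. Between 17874 and 34942 genes were detected in the controls and between 25910 and 40852 in the mutants, and 3 counts in a library are worth 0.257 to 0.536 CPM, the count scaled to the TMM-normalized library size. Control 3 had the fewest detected genes, and 8 of the 10 members were at their lowest of all 7 libraries there, while Spry2 was at its highest. Braf itself was at 33.8, 16.8 and 13 CPM in controls 1 to 3 and at 13.9, 25.2, 21.7 and 28.4 CPM in mutants 1 to 4, with a log2 fold change of 0.07 ± 0.43 (SE). These counts cover the whole gene, so they do not check the mutant allele. Rax, whose promoter drives the Cre, was at 26.8, 40.9 and 143 CPM in the controls and at 175, 72.5, 33.2 and 48.6 CPM in the mutants, so the groups overlapped. Mutants 3 and 4 held Xist, a transcript of females, at 134 CPM each and the Y-linked Ddx3y at 0.334 and 0.536 CPM, whereas the other 5 libraries held Ddx3y at 69.7 to 118 CPM and Xist at 1.5 CPM or less. The labels of the bulk libraries give no sex. With those 5 libraries alone, an alternative chosen after seeing the data, 3 members passed the unadjusted p (Dusp6, Spry4 and Etv5, all higher in mutants), and Etv4 had a log2 fold change of 2.82 (unadjusted p of 0.0506, adjusted p of 1, edgeR). The share of all genes past the unadjusted p was not counted for this fit.

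**Figure D1:**
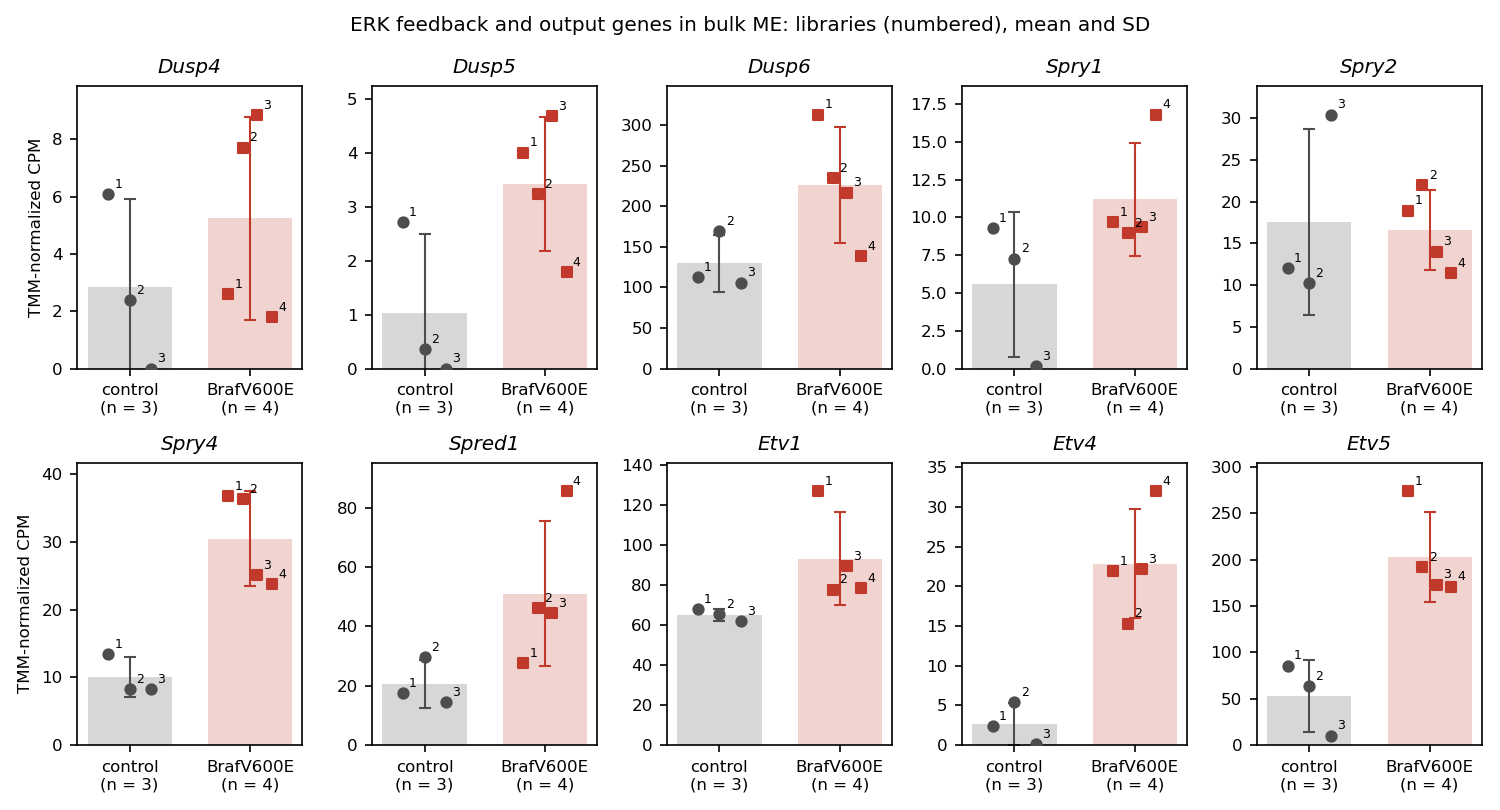
TMM-normalized CPM (vertical axis, linear from 0, a scale of its own in each panel) of the 10 genes in the 3 control libraries (grey circles) and the 4 BrafV600E libraries (red squares), numbered by replicate, with bars for the mean and error bars for the SD, cut at 0. The mutant libraries lie above all controls for Spry4, Etv1, Etv4 and Etv5, with Etv4 at 15.3 to 32 CPM against at most 5.42.

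For each of the 3 PEA3 factors, the mutant libraries lay above the controls. Etv4 was at 2.37, 5.42 and 0.0856 CPM in controls 1 to 3 and at 21.9, 15.3, 22.2 and 32 CPM in mutants 1 to 4. Every mutant library was above every control, and control 3 held 1 count of the gene. The log2 fold change was 3.11 ± 0.90 (SE), 8.66-fold, with an unadjusted p of 0.00578 and an adjusted p of 0.439 in edgeR's quasi-likelihood test. It was 2.55 to 4.25 over the 17 alternative fits that gave a value, 2 of which, DESeq2 and the fit with no filter on low counts, passed an adjusted p of 0.05 (0.0117 and 0.00104), within a range of 0.00104 to 1.

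Etv5 was at 85.8, 63.4 and 10.1 CPM in the controls and at 274, 192, 173 and 171 CPM in the mutants. The groups did not overlap, and control 3 lay well below the other 2 controls. Its log2 fold change was 1.93 ± 0.58 (SE), 3.82-fold, with an unadjusted p of 0.00734 and an adjusted p of 0.44 by edgeR. Without control 3 it was 1.46, and without control 1 it was 2.44.

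Etv1 was the steadiest member among controls, at 67.9, 65.4 and 62 CPM, and was at 127, 77.7, 89.4 and 78.5 CPM in the mutants. The groups did not overlap, but the gap was small beside mutant 1, which stood above the other 3. Its log2 fold change of 0.52 ± 0.28 (SE) did not pass the unadjusted test (p of 0.096, adjusted p of 0.686, edgeR). Per kilobase of exon, Etv5 was the most abundant of these factors, with 12.9 ± 9.48 CPM per kb (SD, n = 3) in controls and 49.4 ± 11.8 (n = 4) in mutants. Etv1 was at 4.9 ± 0.223 and 7.01 ± 1.74 CPM per kb and Etv4 at 0.846 ± 0.862 and 7.36 ± 2.22. The mean of Etv4 thus lay below that of Etv1 in controls and close to it in mutants on this scale. The scale divides by the union of all annotated exons, 13.3 kb for Etv1 and 3.1 kb for Etv4. The transcripts present may be shorter. In CPM the mutant means were 93.2 for Etv1 and 22.9 for Etv4.

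Among the Sprouty and Spred genes, which act on the step between receptors and RAS, Spry4 and Spred1 were higher in mutants at the unadjusted p, and Spry1 and Spry2 did not pass it. Spry4 was at 13.4, 8.26 and 8.3 CPM in the controls and at 36.8, 36.3, 25.1 and 23.8 CPM in the mutants. The lowest mutant was above the highest control. Its log2 fold change was 1.61 ± 0.39 (SE), 3.05-fold, the smallest unadjusted p of the members (0.00174, adjusted p of 0.359, edgeR). It stayed between 1.40 and 1.87 over 18 alternative fits, and its adjusted p ranged from 0.0157 (DESeq2) to 1.

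Spred1 was at 17.6, 29.6 and 14.5 CPM in the controls and at 27.7, 46.2, 44.6 and 85.6 CPM in the mutants. Mutant 1 fell below control 2, so the groups overlapped, and mutant 4 was far above the rest. The log2 fold change was 1.31 ± 0.44 (SE), 2.48-fold (unadjusted p of 0.0128, adjusted p of 0.491, edgeR). With the replicate number as a block the unadjusted p was 0.0694 (log2 fold change of 0.97), and with the number of detected genes as a covariate it was 0.201 (0.84). In the 5 libraries with Y-linked transcripts it was 0.146 (0.85).

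Spry1 was at 9.27, 7.28 and 0.171 CPM in the controls and at 9.69, 8.96, 9.35 and 16.8 CPM in the mutants. The low control 3 carried most of the difference, since controls 1 and 2 were near mutants 1 to 3. Its log2 fold change was 1.01 ± 0.91 (SE), and 0.44 without control 3, which does not pass the test (adjusted p of 0.836 and 0.978, edgeR). Spry2 was at 12, 10.2 and 30.4 CPM in the controls and at 18.9, 22, 14 and 11.4 CPM in the mutants. The groups overlapped throughout, with a log2 fold change of -0.08 ± 0.48 (SE) that was positive under 9 of 18 alternatives, among them library totals alone in place of TMM (0.10).

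The phosphatases were less uniform. Dusp6, the cytoplasmic ERK phosphatase, was at 113, 170 and 106 CPM in the controls and at 313, 235, 217 and 139 CPM in the mutants. Mutant 4 lay below control 2, so the groups overlapped. Its log2 fold change was 0.80 ± 0.34 (SE), 1.74-fold (unadjusted p of 0.0364, adjusted p of 0.577, edgeR), and it passed the unadjusted p in 12 of 18 alternatives. Without control 1 that p was 0.102 and without control 3 it was 0.0881. Per kilobase of exon it was the most abundant member, with 41.4 ± 11.2 CPM per kb (SD, n = 3) in controls and 72.2 ± 22.8 (n = 4) in mutants.

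Both nuclear phosphatases had low counts, with 0 of each in control 3. Dusp4 was at 6.1, 2.4 and 0 CPM in the controls and at 2.6, 7.71, 8.85 and 1.79 CPM in the mutants, which overlapped (log2 fold change of 0.89 ± 1.26, adjusted p of 0.907, edgeR). Dusp5 was at 2.71, 0.355 and 0 CPM in the controls and at 4, 3.23, 4.68 and 1.79 CPM in the mutants. Mutant 4 lay below control 1, and the log2 fold change was 1.74 ± 1.37 (adjusted p of 0.804, edgeR). Without control 1 it was 4.15 (unadjusted p of 0.0156, adjusted p of 0.12), and by limma-voom it was 3.36 (0.0371 and 0.434). Over its 17 alternatives the adjusted p was 0.12 to 1. Both genes rest on 0 to 74 counts per library.

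**Figure D2:**
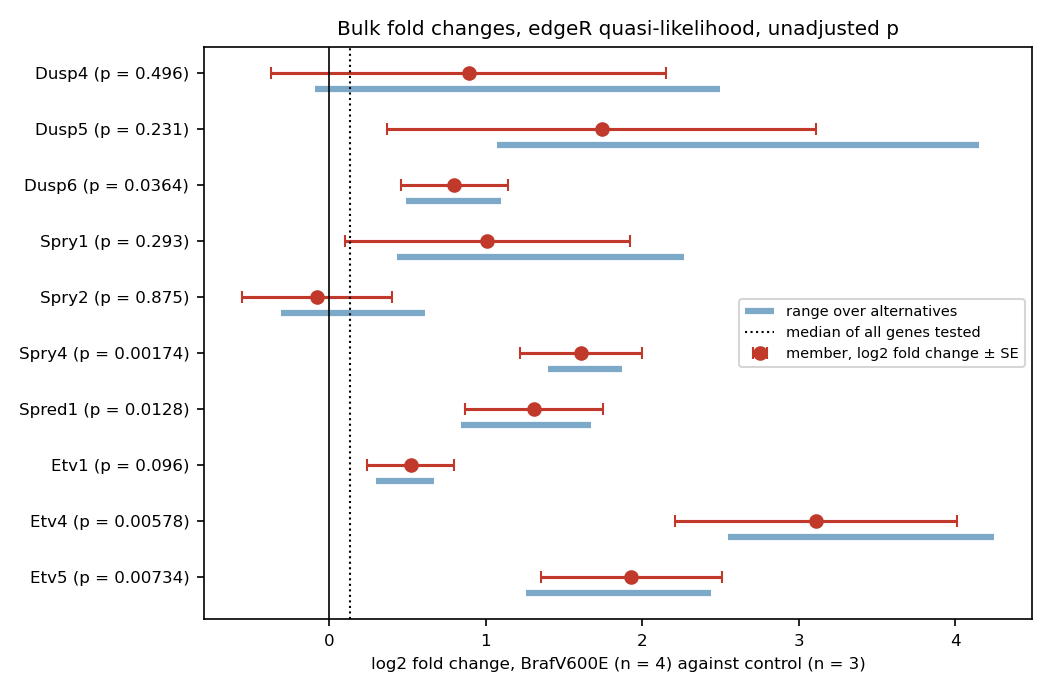
Log2 fold change of each gene between BrafV600E (n = 4) and control (n = 3) bulk ME by edgeR (red points, error bars are the SE, horizontal axis), the range over alternative fits (blue lines) and the median of all genes tested (dotted line at 0.13), with unadjusted p beside each name. The blue lines of Dusp4 and Spry2 cross 0, and those of the other 8 genes do not.

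Other genes of the pathway were described from lists, with the median of all genes tested (0.13) and the shares above as the reading frame. Of the 8 other MAPK phosphatases tested, 1 was higher and 0 lower at the unadjusted p. This was Dusp9, an ERK phosphatase, which had 0 counts in all 3 controls and 0.417 to 3.75 CPM in the mutants (adjusted p of 0.434, edgeR). Dusp8 and Dusp7 came next, with log2 fold changes of 0.85 ± 0.44 and 1.09 ± 0.60 that did not pass.

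Of 10 other Sprouty, Spred and receptor-level inhibitors, 3 were higher and 0 lower, with a median of 0.85. Lrig1, which promotes breakdown of ErbB receptors, had a log2 fold change of 0.82 ± 0.31, and its groups did not overlap. Nf1, which encodes neurofibromin, had 1.18 ± 0.49, also without overlap, and Errfi1, an inhibitor of the EGF receptor, had 0.98 ± 0.42. The kinases and adaptors of the cascade itself stayed near the median of all genes, with 0 of 23 genes passing in either direction and a median of 0.16. Among these, Gab1, Sos1 and Rps6ka2 had the smallest p, with log2 fold changes of 0.59 ± 0.35, 0.73 ± 0.44 and 0.73 ± 0.54.

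Of 19 genes tested from the immediate early list, 3 were higher and 0 lower, 18 had a positive log2 fold change, and the median was 0.99. The list also holds Elk1, Elk3 and Elk4, transcription factors that act on immediate early genes, with log2 fold changes of 1.03, 0.51 and 0.36. Egr3 was at 0, 0.355 and 0 CPM in controls and at 3.6, 0.938, 10.9 and 2.32 CPM in mutants. Nr4a1 was at 45, 47.4 and 26.7 CPM in controls and at 212, 58.1, 256 and 40.2 CPM in mutants, so mutants 1 and 3 stood apart from mutants 2 and 4. Jun had a log2 fold change of 0.99 ± 0.39. The summed level of the list was 453, 801 and 449 CPM in the controls and 1355, 631, 1404 and 452 CPM in the mutants, so mutants 1 and 3 were high. Among the mutants, Dusp6, Spry4, Etv1 and Etv5 were highest in mutant 1 and Dusp4 and Dusp5 in mutant 3, whereas Spry1, Spred1 and Etv4 were highest in mutant 4 and Spry2 in mutant 2. Mutants 1 and 3 also had the highest sums of the 6 pituitary endocrine markers outside the pars tuberalis, 16400 and 20161 CPM. In mutants 2 and 4 these markers summed to 1882 and 971 CPM, and in control 1 to 15256 CPM. Most of the sum in mutants 1 and 3 was Pomc, at 15892 and 19679 CPM, whereas Prl, Lhb and Fshb were each highest in control 1. Whether the members moved with the immediate early genes or with the pituitary transcripts was not tested.

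Of 16 other ERK output genes tested, 3 were higher and 0 lower, with a median of 0.75. Cdkn1a, a cell cycle inhibitor, had a log2 fold change of 1.88 ± 0.46 and Vgf, a secreted neuropeptide precursor, had 2.16 ± 0.58, both without overlap between groups. Epha4 had 1.52 ± 0.53. Over the list, the groups did not overlap for 3 genes in the higher direction and 1 in the lower. The lower one was Mmp9, with -1.48 ± 0.79, which did not pass the unadjusted p. Growth factor receptors and ligands showed no common direction, with 1 higher and 1 lower of 20 receptors and 0 of 22 ligands. Fgfr3 was higher in mutants (log2 fold change of 1.35 ± 0.36) and the endothelial receptor Kdr lower (-1.65 ± 0.44), while Csf1r had -0.89 ± 0.43. The ligands with the smallest p were Fgf2 (1.46 ± 0.86), Fgf1 (-0.47 ± 0.34) and Areg (2.06 ± 1.66), and these did not pass.

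Markers of several cell types also differed between the bulk groups at the unadjusted p, in both directions. Summed over 8 markers of oligodendrocyte precursor cells (OPCs), the level was 122, 145 and 82.7 CPM in the controls and 655, 256, 298 and 856 CPM in the mutants. Of these markers, 6 were higher and 0 lower at the unadjusted p, among them Cspg4, Gpr17, Neu4, Lhfpl3 and C1ql1, with a median log2 fold change of 2.71. Etv4 was highest in mutant 4, which also had the highest OPC sum, and lowest of the mutants in mutant 2, which had the lowest OPC sum of the mutants. Mutants 1 and 3 had nearly the same Etv4 level, 21.9 and 22.2 CPM, with OPC sums of 655 and 298 CPM. The markers in this sum differed unequally between mutants 1 and 3. Cspg4 was at 53.7 and 48.9 CPM, Pdgfra at 79.8 and 60.1 CPM and C1ql1 at 4.6 and 4.51 CPM. Gpr17 was at 224 and 82.2 CPM, Neu4 at 152 and 43.1 CPM and Lhfpl3 at 71.3 and 36.4 CPM. Vcan was at 32.6 and 18.4 CPM and Bmp4 at 37.3 and 4.68 CPM. Pdgfra is also in the marker list of vascular and leptomeningeal cells (VLMCs) and fibroblasts. Of the other members with a small p, Etv5 and Spry4 were lowest of the mutants in mutant 4. Their gap to mutant 3 was small (171 against 173 CPM and 23.8 against 25.1 CPM). Spred1 was highest in mutant 4 but lowest of the mutants in mutant 1, whose OPC sum came next to that of mutant 4. The part of OPC number in the Etv4, Etv5, Spry4 and Spred1 results was not tested.

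Markers of VLMCs and fibroblasts summed to 1551 to 3339.6 CPM in controls and 772 to 1076 CPM in mutants, and endothelial markers to 306 to 576 CPM and 117 to 221 CPM. Neither pair of ranges overlapped, with 3 of 9 and 4 of 9 markers lower and 0 higher. Of the macrophage and microglia markers 4 of 11 were lower, and of the oligodendrocyte markers 7 of 9. Tanycyte markers went both ways, with 3 higher (Dio2, Crym, Lhx2) and 2 lower (Scn7a, Adm) of 11 tested and overlapping sums of 1528 to 2711 CPM and 1922 to 3472 CPM. In the other 9 cell type lists, astrocyte markers had 3 of 8 and neuron markers 2 of 9 genes higher and 0 lower. Ependymal, mural and erythrocyte markers had 0 in either direction. Lower and not higher were 1 of 7 pars tuberalis markers, 3 of 4 other pituitary endocrine markers, 1 of 5 NK and T cell markers and 2 of 6 mast cell and neutrophil markers. The 3 pituitary markers were Prl, Lhb and Fshb, each at its highest of all libraries in control 1. That list summed to 15256, 706 and 2477 CPM in the controls and to 16400, 1882, 20161 and 971 CPM in the mutants. These ranges overlapped, and Pomc had a positive log2 fold change of 1.79 ± 1.14 that did not pass. The part of these cell types in the members' results was not tested.

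Which wild-type cells carry the members was read from the single-cell library, with 990 cells, 9846289 UMIs and 3284 to 57119 UMIs a cell. The cells were grouped into 12 clusters on variable genes that left out the members and the pathway lists, and clusters were named by markers. The members differed in where they were highest. Spry1, Spry2 and Spry4 were highest in VLMC-like cells (vascular and leptomeningeal cells), Etv4, Etv5 and Spred1 in OPC-like cells, Etv1 in oligodendrocyte-like cells, Dusp6 in macrophage- or microglia-like and tanycyte-like cells, and Dusp5 in NK- or T-cell-like cells. Some of these places are shared within counting error, such as that of Etv5 with tanycyte-like cells and that of Spred1 with 6 other clusters, and Dusp4 had too few UMIs for an order. With 1 library there is no test between cell types. Levels are CPM of UMIs summed over a cluster, and the intervals are exact 95% Poisson intervals that cover counting error only. A count of 0 is given with the level that 3 UMIs would have.

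Tanycyte-like cells formed cluster 1 (178 cells), with 11 of 12 tanycyte markers raised, and Rax was at 535 CPM there (502 to 569.7). Cluster 8 (49 cells) held Rax at 618 CPM with tanycyte and cilia genes and stays unnamed, as does cluster 11 (23 cells), led by Krtdap. Cluster 2 (124 cells) was led by Lum and other VLMC genes but also held endothelial and mural transcripts. Cluster 6 (54 cells, PTC-like) had 7 of 8 pars tuberalis markers raised, and also Pomc, Lhb and Fshb of the other pituitary endocrine markers. Outside clusters 1 and 8, Rax was highest in these PTC-like cells, at 92.8 CPM (66.9 to 125), with a UMI in 22 of 54 cells. The remaining clusters held Rax at 21.9 CPM or less. Cluster 3 (81 cells, macrophage- or microglia-like) had 11 of 11 of its markers raised, and also 4 of 6 mast cell and neutrophil markers, among them Cpa3, Mcpt4 and Tpsb2. The largest cluster was erythrocyte-like (241 cells), where erythrocyte markers took 930869 CPM and the members were at 0.476 to 5.24 CPM. In cells of the other clusters, haemoglobin took a median share of 0.362%.

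**Figure D3:**
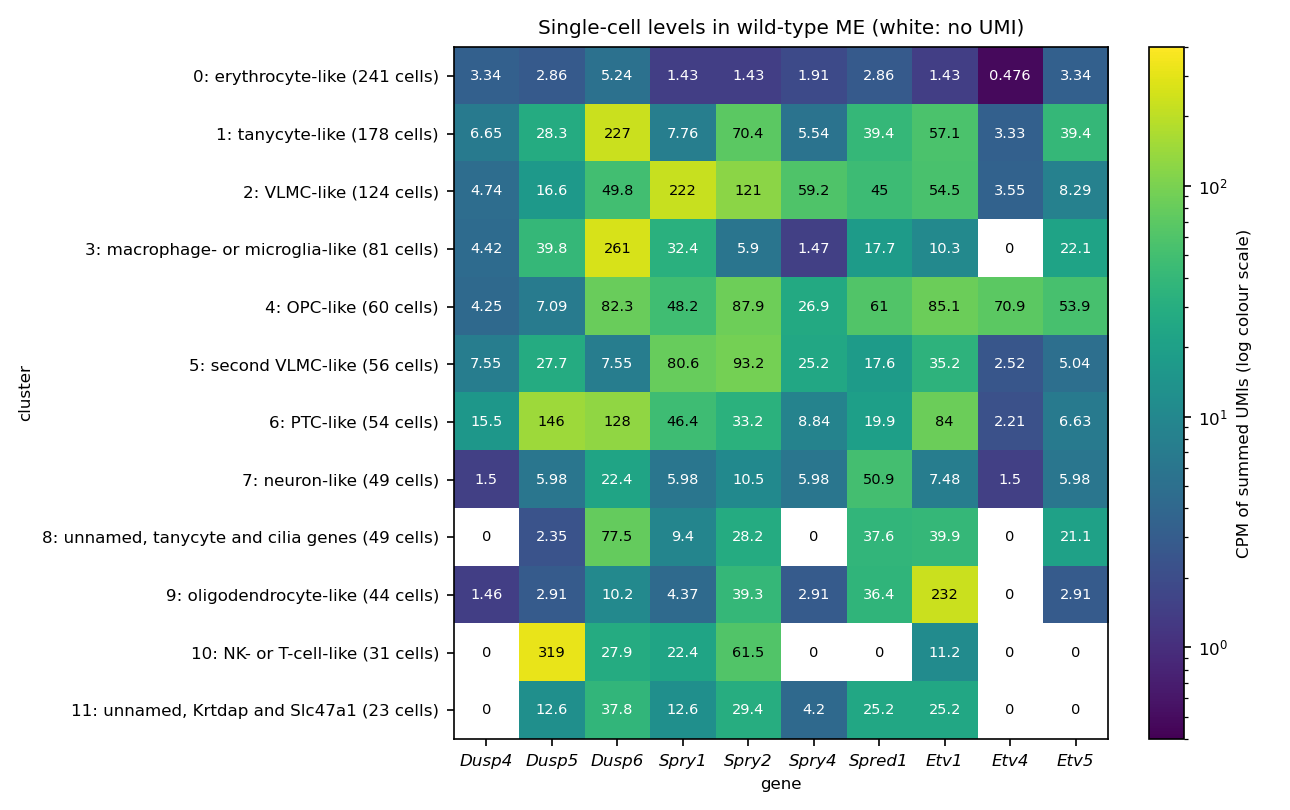
CPM of summed UMIs of the 10 genes (columns) in the 12 clusters of wild-type ME cells (rows, with the number of cells), on a log colour scale with the value printed in each field and white for no UMI. Etv4 stands at 70.9 CPM in the OPC-like row and at 3.55 CPM or less in every other row, while Dusp6 is above 70 CPM in 5 rows.

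Of the phosphatases, Dusp6 had the most UMIs (842). It was at 261 CPM (224 to 302) in macrophage- or microglia-like cells and at 227 CPM (205 to 249.7) in tanycyte-like cells, and these intervals overlap. PTC-like cells, named for the endocrine cells of the pars tuberalis, followed with 128 CPM, OPC-like cells with 82.3 CPM and cluster 8 with 77.5 CPM. Tanycyte-like cells, 18% of all cells, held 48.6% of all Dusp6 UMIs. After thinning each cell to 3000 UMIs, 40.4% of tanycyte-like cells had a Dusp6 UMI (59% unthinned, median depth of 7817 UMIs). The thinned share was 42% in macrophage- or microglia-like cells, 25.9% in PTC-like cells and 22.4% in cluster 8. In erythrocyte-like cells it was 0.83% (4.56% unthinned, 7747 UMIs), but erythrocyte transcripts took most UMIs there, so this share is not comparable.

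Dusp5 was highest in immune and endocrine cells. It was at 319 CPM (241 to 413) in NK- or T-cell-like cells and at 146 CPM (113 to 186) in PTC-like cells, and these did not overlap. The remaining clusters were at 39.8 CPM or less, with tanycyte-like cells at 28.3 CPM (21 to 37.2). Dusp4 had 42 UMIs in all. Its highest level, 15.5 CPM (6.22 to 31.9) in PTC-like cells, rests on 7 UMIs and overlaps the intervals of 10 other clusters, so no order can be read.

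The Sprouty genes shared the VLMC-like cells as their highest place. Spry1 was at 222 CPM (191 to 256) in cluster 2, then at 80.6 CPM (55.1 to 114) in the second VLMC-like cluster, without overlap. Spry2 was at 121 CPM (98.5 to 147) and 93.2 CPM (65.6 to 128) in those clusters and at 87.9 CPM (67.4 to 113) in OPC-like cells, all of which overlap. It was also at 70.4 CPM (58.7 to 83.7) in tanycyte-like cells, where Spry1 was at 7.76 CPM (18 UMIs in both clusters with tanycyte markers together). Spry4 was at 59.2 CPM (44 to 78.1) in cluster 2, at 26.9 CPM (16.2 to 42.1) in OPC-like cells, at 25.2 CPM (12.1 to 46.3) in the second VLMC-like cluster and at 5.54 CPM in tanycyte-like cells. The interval of cluster 2 overlaps only that of the second VLMC-like cluster. Spry4 had 0 UMIs in clusters 8 and 10, which allow up to 7.05 and 16.8 CPM. After thinning, the order of Spry4 in its leading pair was turned, with 55.6 CPM in OPC-like and 48.4 CPM in VLMC-like cells.

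Within cluster 2, most cells were not endothelial. The 90 cells with no UMI of the 9 endothelial markers had Spry1 at 216 CPM (179.8 to 258), Spry2 at 143 CPM (114 to 177) and Spry4 at 41.8 CPM (26.8 to 62.2). The 25 cells with 1 or 2 such UMIs had Spry1 at 176 CPM (124 to 243) and Spry4 at 105 CPM (65.8 to 159). The 9 cells with 3 or more such UMIs had Spry1 at 428 CPM (279.5 to 627) on 26 UMIs, and Dusp6 at 230.4 CPM (126 to 387) against 36.6 CPM (22.7 to 55.9) in the 90 cells. Spry1 was thus high in both the cells without and the cells with endothelial transcripts. For Spry4 the intervals of the 90 and the 25 cells did not overlap. That of the 90 cells overlaps the interval of OPC-like cells (16.2 to 42.1 CPM).

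Spred1 was the most evenly spread member. OPC-like cells led with 61 CPM (44.1 to 82.1), followed by neuron-like cells with 50.9 CPM (39.5 to 64.5), VLMC-like cells with 45 CPM and tanycyte-like cells with 39.4 CPM. The intervals of 6 other clusters overlapped that of the OPC-like cells. After thinning, neuron-like cells, whose median depth of 31422 UMIs was the highest, came first with 102 CPM. It had 0 UMIs in NK- or T-cell-like cells, which allow up to 16.8 CPM.

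Of the PEA3 factors, Etv4 was the most restricted, with 50 of its 64 UMIs (78.1%) in the 60 OPC-like cells. Its level there was 70.9 CPM (52.6 to 93.5), and the next was 3.55 CPM in VLMC-like cells, on 3 UMIs. It had 0 UMIs in 5 clusters, among them the oligodendrocyte-like cells (up to 4.37 CPM), and 3.33 CPM in tanycyte-like cells. Etv5 was at 53.9 CPM (38.1 to 74) in OPC-like and at 39.4 CPM (30.7 to 49.6) in tanycyte-like cells, and these overlap. Both clusters with tanycyte markers together held 49.4% of its 162 UMIs. Etv1 was at 232 CPM (197 to 271) in oligodendrocyte-like cells, above OPC-like cells with 85.1 CPM (64.9 to 109.5), PTC-like cells with 84 CPM and tanycyte-like cells with 57.1 CPM (46.6 to 69.2).

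The OPC-like cluster was not uniform. It was divided, after the data were seen, into 32 cells with more UMIs of Pdgfra and Cspg4, genes of early precursors, and 27 cells with more UMIs of Enpp6 and Gpr17, genes of later precursors on the way to oligodendrocytes. There was 1 tied cell, and 3 cells lay within 1 UMI of the cut. All 50 Etv4 UMIs were in the Pdgfra-Cspg4 cells, at 147 CPM (109 to 193), in 26 of 32 cells. Of the Enpp6-Gpr17 cells, 0 of 27 had an Etv4 UMI, which allows a share of up to 11.1% of cells with a UMI and is no limit on cells that express the gene. The median depths were 10398 and 11838 UMIs.

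Other members followed the same division. Etv5 was at 106 CPM (74 to 146) in Pdgfra-Cspg4 cells and at 5.55 CPM (0.672 to 20.1) in Enpp6-Gpr17 cells, Spry2 at 176 CPM (134 to 227) and 5.55 CPM, and Spry4 at 52.8 CPM (31.3 to 83.5) and 2.78 CPM (0.0703 to 15.5). Dusp6 was at 138 CPM (101 to 183) and 27.8 CPM (13.3 to 51), Etv1 at 147 CPM and 27.8 CPM, and Spry1 at 88 CPM and 11.1 CPM. For these 6 members and Etv4 the intervals did not overlap. Those of Spred1, at 85.1 CPM (57 to 122) and 38.9 CPM (21.2 to 65.2), overlapped, as did those of Dusp4 and Dusp5, which had at most 4 UMIs in a part. The immediate early genes summed to 11457 CPM in Pdgfra-Cspg4 cells and 2831 CPM in Enpp6-Gpr17 cells, and their part in the division was not tested. Etv1 took a different course from its relatives, being low in Enpp6-Gpr17 cells and highest in oligodendrocyte-like cells. Among the Pdgfra-Cspg4 cells, the 13 with a UMI of the cell cycle genes Mki67 or Top2a had Etv4 at 157 CPM (101 to 234), and the 19 others had 138 CPM (90.4 to 203).

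**Figure D4:**
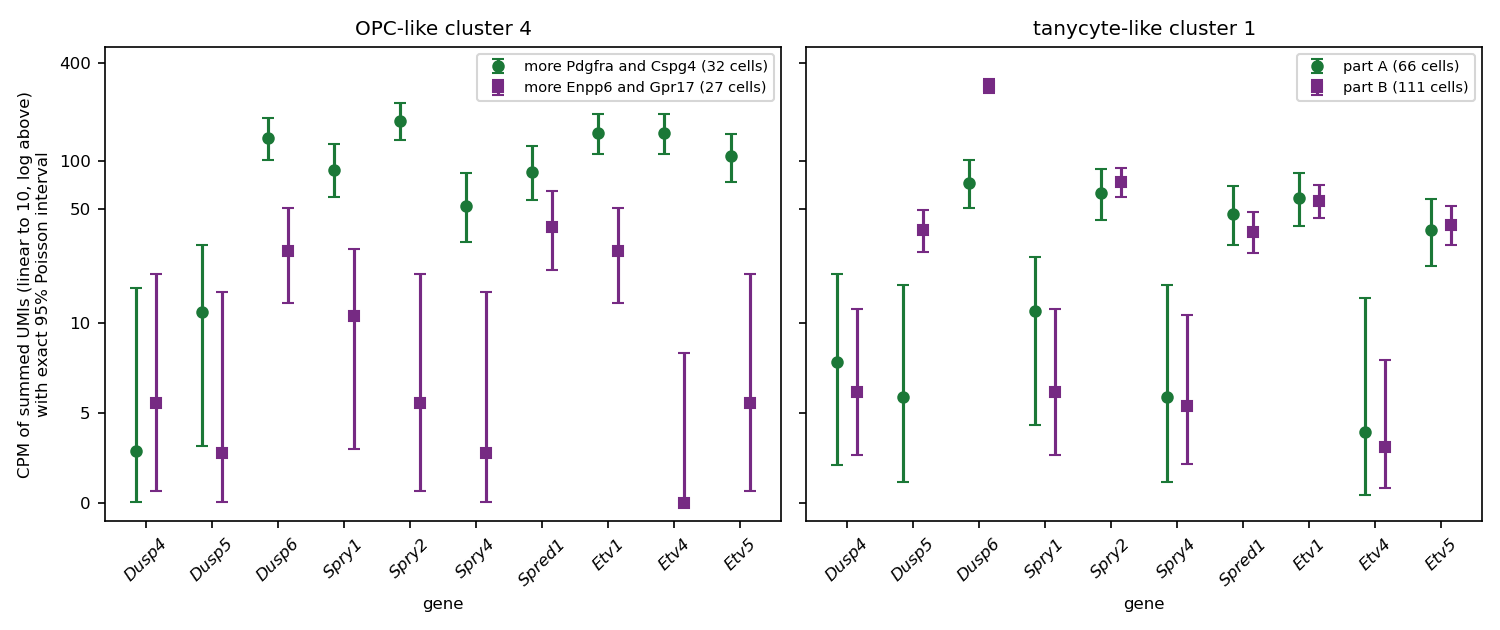
CPM of summed UMIs (vertical axis, linear to 10 and logarithmic above) of the 10 genes in parts of the OPC-like cluster (left) and of the tanycyte-like cluster (right), with exact 95% Poisson intervals or, for 0 UMIs, the level of 3 UMIs as upper end. Etv4 is at 147 CPM in Pdgfra-Cspg4 cells and at 0 in Enpp6-Gpr17 cells, and in tanycyte-like cells Dusp6 is at 72.6 CPM in part A and 288 CPM in part B while Etv5 is near 40 CPM in both.

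Tanycyte-like cells also fell into parts when 30 components were used in place of 20, with 66 cells in part A and 111 in part B. Dusp6 was at 72.6 CPM (51.1 to 100.1) in part A and at 288 CPM (259.7 to 319) in part B, and Dusp5 at 5.89 CPM (1.21 to 17.2) and 37.2 CPM (27.4 to 49.3). These intervals did not overlap, whereas those of the other 8 members did, such as Etv5 at 37.3 and 40.3 CPM and Spry2 at 62.8 and 73.6 CPM. The immediate early genes were also higher in part B, with a sum of 13155 CPM against 2879.6 CPM, with Fos at 3446 against 746 CPM. Rax was at 656 CPM in part A and 488 CPM in part B, so both parts were Rax-expressing. Other tanycyte genes moved as well, with Fndc3c1 at 179 CPM (144 to 219) in part A and 429 CPM (394 to 467) in part B, Dio2 at 108 CPM (81.3 to 141) and 186 CPM (163 to 211), and Frzb at 186 CPM and 146 CPM with overlapping intervals. Ependymal markers summed to 177 CPM (142 to 217) in part A and 105 CPM (88.4 to 125) in part B. The part of these differences in the Dusp6 and Dusp5 levels was not tested. The cells had been dissociated with papain before capture, and the part of dissociation in these levels was not tested.

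Genes of the same pathway in the clusters with tanycyte markers were led by immediate early genes, receptors and feedback genes outside the member list. Fos and Jun were at 2537 and 2031 CPM there and highest in VLMC-like cells (12103 and 9517 CPM). The phosphatase Dusp1 was at 539 CPM and Dusp3 at 71.3 CPM, and the cytokine signalling inhibitor Socs3 at 959.7 CPM and Lrig1 at 44.4 CPM. Of the receptors, Ntrk2 was at 1149 CPM and Fgfr1 at 264 CPM, and of the ligands Vegfa at 212 CPM and Pdgfa at 78.9 CPM. Of the kinases, Araf was at 152 CPM and Map2k2 at 132 CPM, with Braf at 39.9 CPM (32.1 to 49.1). Maff and Tnfrsf12a led the other output genes with 103 and 61.9 CPM.

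Over the 12 clusters, which share 1 library and differ in depth, the levels of the Sprouty genes went most closely with the immediate early genes. The correlation of log2(CPM + 10) with the summed immediate early genes was 0.76 for Spry1, 0.63 for Spry2 and 0.58 for Spry4. It was 0.06 for Etv4 and 0.14 for Etv5, and 0.25 to 0.39 for the other 5 members. Of single genes, those most like the members were Fosl2 and Spty2d1 for Dusp5 (r of 0.81 and 0.80), Gpr146 and Nipa2 for Dusp6 (0.87 and 0.86), Nr4a1 and Sparcl1 for Spry1 (0.91 and 0.87), and Lamc1 and Tcf12 for Spry2 (0.91 and 0.89). Igfbp3 and Pdgfra were most like Spry4 (0.93 and 0.91), Wasl and Tssc4 most like Spred1 (0.95 and 0.93), Ralgds and Ppp2r3a most like Etv1 (0.90 and 0.88), and Gpr146 and Sap30 most like Etv5 (0.89 for both). These values describe 12 points and carry no test.

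Set side by side, the members that separated the bulk groups had their highest wild-type levels in different cells. Etv4 peaked in OPC-like cells, whose markers were higher in mutant ME. Etv5 was highest there too, but its interval overlapped that of tanycyte-like cells, and the clusters with tanycyte markers held 49.4% of its UMIs. Etv1 peaked in oligodendrocyte-like cells, of whose 9 markers 7 were lower in mutant ME. Spry4 was highest in VLMC-like cells, of whose 9 markers 3 were lower in mutant ME, and was at 5.54 CPM (2.66 to 10.2) in wild-type tanycyte-like cells. After thinning it was higher in OPC-like cells, and its 52.8 CPM (31.3 to 83.5) in Pdgfra-Cspg4 cells overlaps its 59.2 CPM (44 to 78.1) in cluster 2. Spry1 and Spry2 were also highest in VLMC-like cells and did not separate the bulk groups. For Spry2 the intervals of 3 other clusters overlapped that of cluster 2, and its level in Pdgfra-Cspg4 cells was 176 CPM (134 to 227). The mutant tissue was measured in bulk, so the cells that carried these transcripts there were not identified.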

How the data were processed

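The 10 members, the pathway and marker lists and the tests were chosen with earlier results of these data known. Bulk libraries were made by the authors with oligo(dT) priming by the Smart-seq2 protocol and a Tn5 kit, without UMIs, and deposited as raw read counts per Ensembl gene. The aligner and counter are not given in the sources used here, and the submitters' processing notes name DESeq2 without a version. Single-cell UMI counts were deposited as Cell Ranger wrote them (2.0.1 in the processing notes, GRCm38). Identifiers were matched to symbols through the gene list of the single-cell matrix (27645 of 55450), 0 columns were left unused, and samples were grouped by their labels.

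Counts were fitted with edgeR 4.0.16 (TMM, filter on low counts by group, quasi-likelihood test, no covariate) in R 4.3.3, with p-values adjusted over all 20466 genes tested. Each bulk library is a single mouse. DESeq2 1.42.0 and limma-voom 3.58.1 were alternatives. On counts simulated for this comparison over 20466 genes, the test recovered 21% of 200 genes changed 4-fold (3 false calls) and 66.5% of those changed 16-fold (8 false calls), and called 0 genes with no change. For the cells, Seurat 5.3.0 was used to log-normalize and cluster the UMI counts (4776 variable genes, 20 components, resolution 0.8). Naming a cluster took its leading genes and at least 3 markers whose CPM was 3 times that of the remaining cells. Scrublet in scanpy 1.11.5 called 3 cells doublets (0.303%), and no cell was removed. Lists name the 3 genes with the smallest p in bulk and the 2 most counted in tanycyte-marked clusters. Likeness used members with at least 100 UMIs and genes with at least 200. Divisions of clusters were chosen after seeing the data.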

Additional observations from a re-analysis of the deposited data

Results flagged for a closer look

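Spry1 in mutant 4 (16.8 CPM) stood apart from mutants 1 to 3, which lay between 8.96 and 9.69 CPM, with a gap of 0.907 of the range, above Dixon's 95% critical value for 4 samples. Of the 10 members tested in this way it was the single library that passed, and chance passes about 1 group in 20. The cause was not tested.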

How the results depend on the processing

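The count of genes past an adjusted p of 0.05 (0 by edgeR) depended on the fit. It was 376 by DESeq2, 240 with no filter on low counts, 13 with at least 10 counts in every library, 3 with library totals alone, 1 with upper-quartile factors, 1 with DESeq2 size factors and 14 at an adjusted p of 0.1. Of the alternatives chosen after seeing the data, it was 1 with the number of detected genes as a covariate and 4 without control 3 and mutant 1. Leaving out single libraries gave 0 to 45 genes, with 45 without control 1 and 16 without control 3. The number of members past the unadjusted p was 5 of 10 as reported and 4 to 6 under 17 of 18 alternatives. It was 3 with libraries holding Y-linked transcripts alone, which left 3 controls and 2 mutants. The share of all genes past the unadjusted p was counted for the reported fit alone, so these counts have no such share beside them. The median log2 fold change of all genes tested moved from 0.13 to 0.25 with library totals and to 0.63 by DESeq2, which kept more genes of low count.

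Same-numbered control and mutant libraries did not deviate together (correlations of -0.45, -0.01 and -0.23), so no shared effect of the number was seen. Deviations from the means of 3 and 4 libraries cannot show whether same-numbered mice were handled together. With the replicate block, 0 genes passed the adjusted p and 4 members the unadjusted p. Dusp4 was reversed once, to -0.09 with the number of detected genes as a covariate. Spry2 was reversed to 0.09 by limma-voom, 0.10 with library totals, 0.24 with the replicate block, 0.53 with the covariate, 0.53 without control 3 and mutant 1 and 0.23 with libraries holding Y-linked transcripts alone, and leaving out single libraries gave -0.31 to 0.61. The cause was not tested. The highest cluster of a member was kept for 8 to 10 of 10 members under 8 alternatives for the single cells. Dusp6 changed with 30 components and with all variable genes. Spry4 and Spred1 changed after thinning, and Spred1 with means of per-cell CPM.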
